A study of Mus musculus with 8 samples.

Results

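The 9 genes examined here are parts of the light response cascade of ON bipolar cells or markers of bipolar cells. They are Grm6, Trpm1, Gpr179, Nyx, Gnao1, Rgs7, Rgs11, Pcp2 and Prkca, and the name cascade genes is used for all 9 below. They were chosen by symbol, each symbol matched 1 Ensembl identifier in the count table, and all 9 passed the filter on low counts, among 57010 identifiers in the table and 20457 genes tested. Total RNA of whole mouse retinas, with 1 retina in each library, was sequenced after poly-A selection. The 4 groups were WT (wild type) at postnatal day 15 (P15) and rd10 at P15, P18 and P21, with 2 libraries in each and 8 in all. The rd10 mice carried 2 mutant copies of Pde6b, the gene of the beta subunit of rod phosphodiesterase, and rods are the cells that degenerate first in this line. For the WT mice the study's methods name both C57BL/6J animals and littermates. WT retinas at P18 and P21 were not analysed here, and against WT P15 the genotype and the age of the P18 and P21 groups therefore cannot be told apart.

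ON bipolar cells respond to light with an inverted sign. In the dark, photoreceptors release glutamate, which binds mGluR6 (Grm6) on the dendrites of these cells, activates the G protein Go and keeps the cation channel TRPM1 closed. In light the glutamate level drops, Go is switched off by a complex of RGS proteins held in place by the orphan receptor GPR179, and the channel opens. Loss of function of Grm6, Trpm1, Gpr179 or Nyx causes congenital stationary night blindness, in which the rods are present and their signal does not cross this synapse.

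The libraries held between 28076947 and 33724562 counts, and normalization factors by TMM (the trimmed mean of M values) were between 0.937 and 1.063. Values are given below as CPM, counts scaled to a common library size with these factors. The library rd10 P18 replicate 1 stood apart by gene length. Its log2 CPM minus that of replicate 2 had a median of 0.34 in the shortest of 5 equal classes of summed exon length and of -0.38 in the longest, where the other groups had medians between -0.02 and 0.02. Taken against the other groups, the longest class minus the shortest was -0.74 in rd10 P18 replicate 1 and -0.03 in replicate 2. It was 0.20 and 0.26 in rd10 P21 and between 0.02 and 0.05 in the P15 libraries. The part of this trend in the cascade values was not tested. Sex also differed between the libraries. Both WT libraries, rd10 P18 replicate 2 and rd10 P21 replicate 2 held 26338 to 80032 counts of Xist, while the remaining 4 held 44 to 89 and had Y-linked counts, so that WT and rd10 P15 had no library of the same sex. Rod genes, as a list of 12, had a summed level of 48638.5 to 59578.5 CPM in WT and 22630.4 to 29587 CPM in rd10 P21. In whole retina, fewer cells of a type and less RNA per cell cannot be told apart, and CPM are shares of a library, so each level is relative to all other transcripts.

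None of the 9 genes passed the thresholds of edgeR's quasi-likelihood test (a log2 fold change beyond 1 in either direction with an adjusted p below 0.05) in any comparison with WT P15. Over all genes tested, the share called was 0.23% for rd10 P15, 1.48% for rd10 P18 and 0.386% for rd10 P21. DESeq2 also called 0 of the 9 in each comparison. At an unadjusted p under 0.05 there were 0 of 9 at P15, 1 of 9 (Prkca) at P18 and 2 of 9 (Grm6 and Rgs11) at P21, where the shares over all genes were 12.3%, 17.4% and 11.8%. A difference in the level of the cascade transcripts from WT P15 was thus not shown, and the intervals below give the sizes that remain possible.

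**Figure D1:**
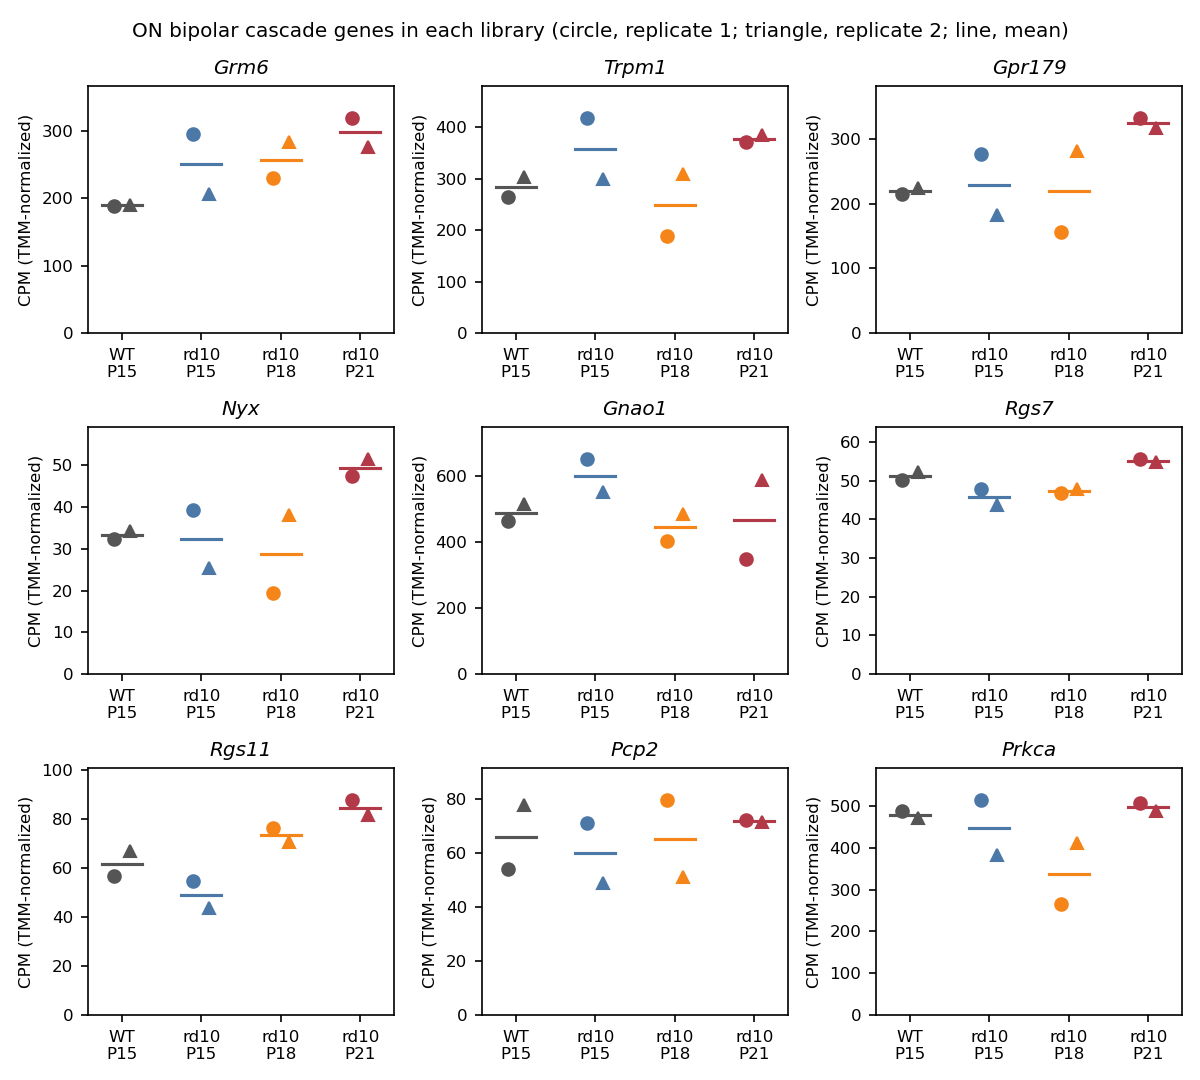
Level of each of the 9 genes in each library, in CPM on a linear axis from 0, by group on the horizontal axis. Circles are replicate 1, triangles replicate 2 and lines the group mean. In rd10 P21 the libraries of Grm6, Trpm1, Gpr179, Nyx, Rgs7, Rgs11 and Prkca sit above both WT libraries, for Prkca by a narrow margin. In rd10 P18 the libraries of Trpm1, Gpr179, Nyx and Prkca lie far apart.

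Grm6 (GRCm38, plus strand, chr11:50850685-50866208), the glutamate receptor at the head of the cascade, was measured at 189 and 190 CPM in the WT libraries and at 295 and 206 CPM in rd10 P15. The rd10 P18 libraries had 230 and 283 CPM and those of rd10 P21 had 319 and 277 CPM. All 6 rd10 libraries were above both WT libraries, whose spread was the narrowest of any group for this gene. How many of all genes had this order was not counted. The log2 fold change against WT P15 was 0.40 ± 0.19 (SE, n = 2 per group) at P15, 0.44 ± 0.19 at P18 and 0.65 ± 0.19 at P21, with adjusted p by edgeR of 0.449, 0.289 and 0.217. Single libraries moved these values, at P15 to 0.12 without rd10 P15 replicate 1 and to 0.64 without rd10 P15 replicate 2, and at P18 to 0.28 without rd10 P18 replicate 2. At P21 the 95% interval reached from 0.21 to 1.09 and the adjusted p by edgeR was 0.0397 when only the 4 libraries of that comparison were fitted, with the fold still under the threshold. Against the bipolar identity list, described below, the P21 log2 fold change was 0.36.

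The RefSeq promoter window of Grm6 (GRCm38.p6, plus strand, chr11:50850435-50850734, 250 bases before the start and 50 after it) is shown because Grm6 and Trpm1 are the members whose first windows hold GATTA, the core of the site that the homeodomain factors CRX and OTX2 bind. Capitals mark the match, which lies on the other strand and is read here as its reverse complement.
Grm6: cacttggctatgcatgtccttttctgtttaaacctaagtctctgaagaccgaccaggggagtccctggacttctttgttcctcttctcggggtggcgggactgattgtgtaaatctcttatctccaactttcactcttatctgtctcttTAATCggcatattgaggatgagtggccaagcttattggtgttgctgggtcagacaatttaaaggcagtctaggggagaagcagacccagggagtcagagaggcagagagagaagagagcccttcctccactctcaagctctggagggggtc
Both strands of the first windows of 8 members were searched, and GATTA was in 2 of them (Grm6 and Trpm1) and in 22% of the 32851 mouse windows. The longer form GGATTA, which contains GATTA, was in the Trpm1 window and in 7.06% of all windows. TAATTA and CATATG were in none of the 8 first windows and in 5.29% and 3.91% of all. CAGATG was in the windows of Trpm1, Gpr179 and Pcp2 and in 17.2% of all windows. These shares are over all windows, of which some genes have several, while members were counted on their first. Window 3 of Pcp2 also held GATTA and TAATTA.

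Trpm1, the cation channel that the cascade closes in the dark, was at 265 and 304 CPM in WT and at 418 and 299 CPM in rd10 P15. In rd10 P18 replicate 1 it was at 188 CPM, and replicate 2 had 309 CPM. In rd10 P21 it was at 371 and 386 CPM, above both WT libraries. The log2 fold change at P21 against WT P15 was 0.41 ± 0.25 (adjusted p by edgeR 0.581), with an interval from -0.15 to 0.98. The lower P18 level came from replicate 1. Without that library the log2 fold change against WT P15 was 0.12, and without replicate 2 it was -0.60, where the fit of all libraries gave -0.19. Trpm1 has the longest exons of the 9, with a sum of 14746 bases. Its first window (GRCm38.p6, plus strand, chr7:64153585-64153884) holds GATTA at 2 places within the last 34 bases before the start, 1 of them inside GGATTA, and both are in capitals.
Trpm1: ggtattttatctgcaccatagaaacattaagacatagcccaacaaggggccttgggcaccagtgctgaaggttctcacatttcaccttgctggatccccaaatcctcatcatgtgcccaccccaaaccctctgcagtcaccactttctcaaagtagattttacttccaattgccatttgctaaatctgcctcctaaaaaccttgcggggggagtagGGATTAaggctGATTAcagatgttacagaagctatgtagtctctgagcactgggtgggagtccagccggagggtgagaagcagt

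Gpr179, the orphan receptor that anchors the RGS complex at the dendritic tips, was at 215 and 224 CPM in WT, with 276 and 183 CPM in the rd10 libraries of P15 and 156 and 282 CPM in those of P18. In rd10 P21 its libraries had 332 and 317 CPM and were above the libraries of every other group, an order whose share over all genes was not counted. The log2 fold change at P21 was 0.57 ± 0.28 against WT P15 (interval -0.09 to 1.22, adjusted p by edgeR 0.496, or 0.0378 from the 4 libraries compared) and 0.50 ± 0.28 against rd10 P15 (adjusted p by edgeR 0.516). The second value was 0.83 without rd10 P15 replicate 1 and 0.23 without rd10 P15 replicate 2.

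Nyx encodes nyctalopin, a leucine-rich repeat protein that brings TRPM1 to the dendritic tips, and lies on chromosome X. It was at 32.4 and 34.3 CPM in WT, and the rd10 pairs were 39.3 and 25.5 CPM at P15, 19.4 and 38.1 CPM at P18 and 47.5 and 51.5 CPM at P21. As for Gpr179, both rd10 P21 libraries were above the 6 others, although 1 of them was of each sex. Here too the share of all genes with this order was not counted. The log2 fold change at P21 was 0.57 ± 0.32 against WT P15 (adjusted p by edgeR 0.542) and 0.61 ± 0.32 against rd10 P15 (adjusted p by edgeR 0.470), the latter 0.96 without rd10 P15 replicate 1 and 0.33 without rd10 P15 replicate 2. Nyx had the widest range of the 9 genes, with the highest library 2.66 times the lowest, and the lowest count of any member, 649 reads in rd10 P18 replicate 1.

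Levels of Nyx and Gpr179 followed each other across the libraries. As a description over 8 libraries, which share their scaling and the rd10 P18 library that stood apart, Pearson's r of log2 CPM was 0.98 between Gpr179 and Nyx, 0.87 between Trpm1 and Nyx and 0.85 between Trpm1 and Gpr179. It was 0.57 between Grm6 and Trpm1, receptor and channel. Gnao1 and Rgs11 had the lowest value of the 36 pairs, -0.55.

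Gnao1 encodes the alpha subunit of Go, which couples mGluR6 to TRPM1, and is also expressed by amacrine and ganglion cells. It was at 463 and 513 CPM in WT, and in rd10 retinas at 650 and 551 CPM at P15, 402 and 485 CPM at P18 and 348 and 586 CPM at P21. The rd10 P15 libraries were both above WT, and the rd10 P21 libraries lay on either side of all WT values. The log2 fold change was 0.30 ± 0.24 at P15 (adjusted p by edgeR 0.672) and -0.06 ± 0.24 at P21, and -0.44 ± 0.24 between rd10 P18 and rd10 P15 (adjusted p by edgeR 0.482). Among the 9 genes at P21 its libraries lay furthest apart, with -0.75 on the log2 scale for replicate 1 minus replicate 2. With a term for sex in the fit, its value at P15 was 0.81 (adjusted p by edgeR 0.354), and that of Trpm1 at P15 was 0.72 in place of 0.33. WT and rd10 P15 each held a single sex, so this term was estimated from rd10 P18 and P21. There sex coincides with the replicate number, and rd10 P18 replicate 1 is the library that stood apart.

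Rgs7 and Rgs11 encode the RGS proteins that speed up GTP hydrolysis by Go and are the partly redundant brakes of the cascade. Rgs7 was at 50.2 and 52.2 CPM in WT, with rd10 values of 47.8 and 43.7 CPM at P15, 46.7 and 47.9 CPM at P18 and 55.5 and 54.7 CPM at P21. It was the steadiest member, with an SD of 0.12 in log2 CPM over the 8 libraries, and 4.32% of all genes tested had a smaller SD. Its log2 fold change against WT P15 was -0.16 ± 0.13 at P15, -0.11 ± 0.13 at P18 and 0.11 ± 0.13 at P21.

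Rgs11 (GRCm38, plus strand, chr17:26202951-26211324) varied more. It was at 56.8 and 67.0 CPM in WT and at 54.6 and 43.9 CPM in rd10 P15, where both libraries were below WT. The rd10 P18 libraries had 76.3 and 70.9 CPM and the rd10 P21 libraries 87.8 and 81.7 CPM. The 4 libraries of the later ages were thus above all 4 libraries of P15, and the share of all genes with this order was not counted. The log2 fold change between rd10 P21 and rd10 P15 was 0.78 ± 0.16, with a 95% interval from 0.42 to 1.14, an unadjusted p of 0.000934 and an adjusted p of 0.0956 by edgeR. DESeq2 gave this difference an adjusted p of 0.00588, and over all other settings than leaving out a library the adjusted p (edgeR or DESeq2) was between 0.00588 and 0.163. The call thus missed the fold threshold under every setting and the p threshold under most. Between rd10 P18 and rd10 P15 the log2 fold change was 0.58 ± 0.16 (adjusted p by edgeR 0.184), and against WT P15 it was -0.33 ± 0.16 at P15, 0.25 ± 0.16 at P18 and 0.45 ± 0.16 at P21 (adjusted p by edgeR 0.301).

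The ratio of Rgs11 to Rgs7, which does not depend on how the libraries were scaled, was 1.13 and 1.28 in WT P15 and 1.14 and 1.00 in rd10 P15. The rd10 ratios were 1.63 and 1.48 at P18 and 1.58 and 1.49 at P21. No library of P18 or P21 overlapped a library of P15 of either genotype, and the P15 groups overlapped each other. No test of this ratio was made, it was not among the planned results, and the share of gene pairs with this order was not counted. The highest value, 1.63, was in rd10 P18 replicate 1, which stood apart by gene length. Summed exon lengths were 4206 bases for Rgs11 and 6019 bases for Rgs7. The Rgs11 exons share 138 bases with Arhgdig on the other strand, whose total over the libraries was 2462 counts against 16789 for Rgs11.

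**Figure D2:**
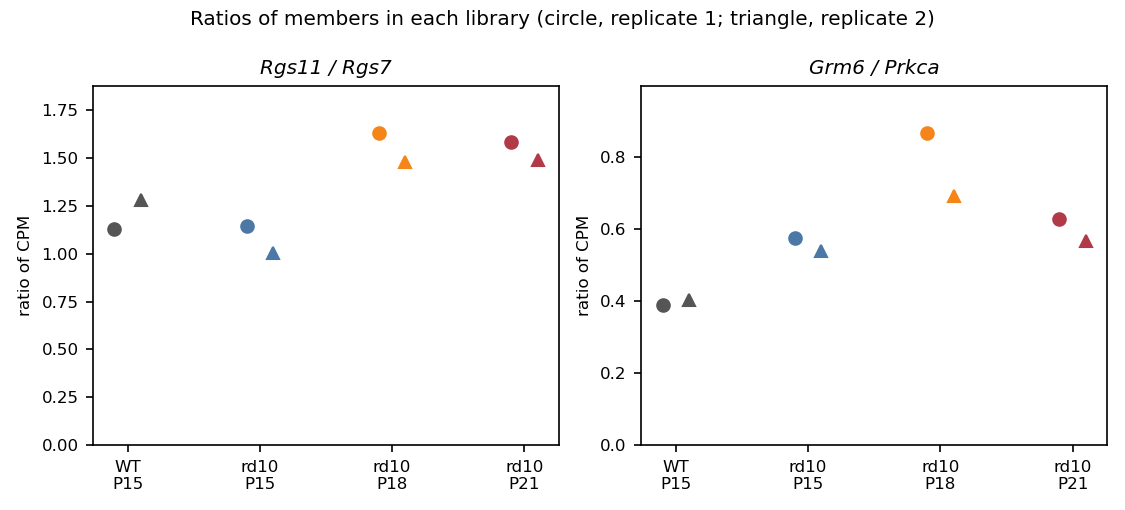
Ratio of the CPM of Rgs11 to Rgs7 (left) and of Grm6 to Prkca (right) in each library, by group. Circles are replicate 1 and triangles replicate 2. On the left the rd10 P18 and P21 libraries sit between 1.48 and 1.63 and the P15 libraries between 1.00 and 1.28, and on the right the WT libraries, at 0.388 and 0.403, are below all rd10 libraries.

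Prkca encodes protein kinase C alpha, the standard marker of rod bipolar cells, and Pcp2 encodes a modulator of Go signaling found in rod bipolar cells and some cone bipolar cells. Prkca was at 488 and 471 CPM in WT, and in the rd10 libraries at 514 and 383 CPM at P15, 266 and 411 CPM at P18 and 507 and 489 CPM at P21. Only at P18 were both libraries below WT, with a log2 fold change of -0.50 ± 0.22 (adjusted p by edgeR 0.286), and this value was -0.22 without replicate 1 and -0.85 (adjusted p by edgeR 0.0133) without replicate 2. At P21 it was 0.06 ± 0.22, with an interval from -0.45 to 0.56. The ratio of Grm6 to Prkca was 0.388 and 0.403 in WT and between 0.538 and 0.866 in the rd10 libraries. Its highest value was in rd10 P18 replicate 1. This ratio was also not planned or tested, and the share of gene pairs with this order was not counted.

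The promoter window of Prkca (GRCm38.p6, minus strand, chr11:108343839-108344138) is shown against those of Grm6 and Trpm1 because the first windows of the members fell into 2 kinds. Capitals mark the CpG dinucleotides.
Prkca: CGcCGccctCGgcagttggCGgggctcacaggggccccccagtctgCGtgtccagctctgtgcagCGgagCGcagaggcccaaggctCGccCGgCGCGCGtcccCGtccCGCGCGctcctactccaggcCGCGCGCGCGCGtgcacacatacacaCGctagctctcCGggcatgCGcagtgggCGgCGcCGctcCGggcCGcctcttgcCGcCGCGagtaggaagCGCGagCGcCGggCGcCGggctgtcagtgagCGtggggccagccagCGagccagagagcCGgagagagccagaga
It holds 42 CpG and 75.3% G and C, and the windows of Gnao1 (42 CpG, 76.3%) and Rgs7 (34 CpG, 73.3%), genes of broad neuronal use, were alike. The first windows of Grm6, Trpm1, Gpr179, Nyx and Pcp2 held between 1 and 4 CpG and between 46.0% and 57.7% G and C. Window 2 of Trpm1 held 6 CpG. The Nyx window (chrX:13460840-13461139) lies outside the gene model used for its length, which starts at base 13466110. The median over all mouse windows was 7 CpG and 52.7%.

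Pcp2 was at 54.1 and 77.9 CPM in WT, and in rd10 libraries at 71.3 and 48.8 CPM at P15, 79.6 and 51.1 CPM at P18 and 72.2 and 71.7 CPM at P21. The libraries of WT P15, rd10 P15 and rd10 P18 lay far apart within each group, and those of rd10 P21 fell inside the ranges of WT P15 and rd10 P18 and just above rd10 P15. Pcp2 shares 941 exon bases with Pet100 on the other strand, whose total was 1824 counts against 16364 for Pcp2, and how the authors' counting treated strand is not given in the sources used here. Its log2 fold change against WT P15 was -0.14 ± 0.27 at P15 and 0.12 ± 0.27 at P21.

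**Figure D3:**
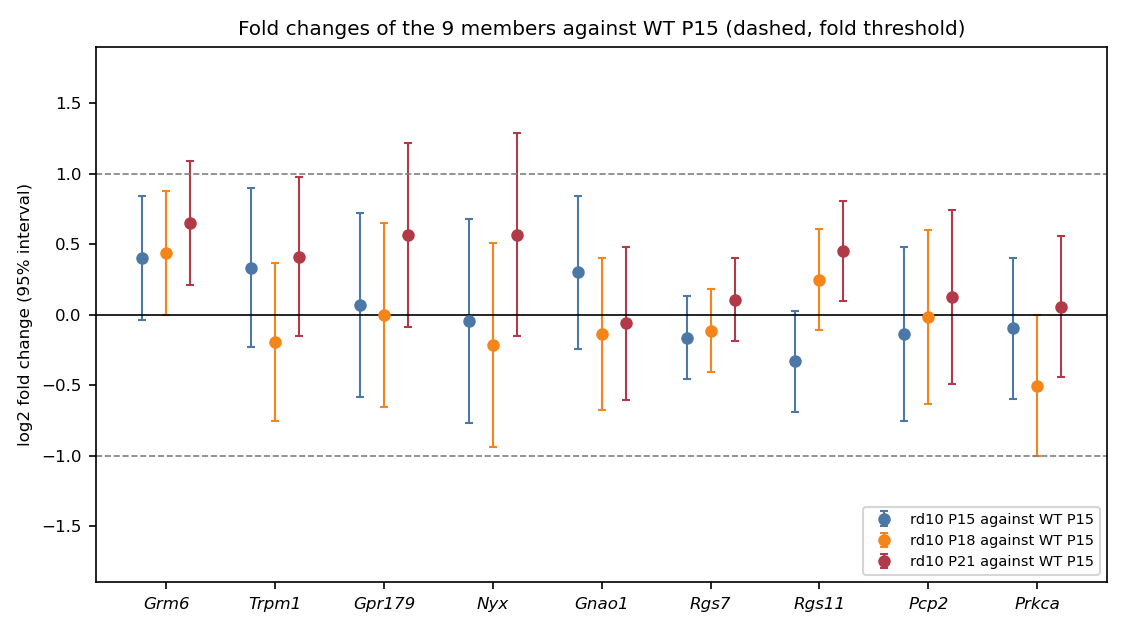
Log2 fold change of each of the 9 genes in rd10 P15, P18 and P21 against WT P15, with 95% intervals from edgeR's fit of all 8 libraries. Dashed lines mark the fold threshold of 1 in either direction, and no point passes it. At P21, 8 of the 9 points are above 0, with Gnao1 at -0.06.

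In rd10 P21, 8 of the 9 genes had a positive log2 fold change against WT P15, with a median of 0.41 and a range from -0.06 to 0.65, where the median over all genes tested was 0.00. In rd10 P15 and rd10 P18 the medians were -0.04 and -0.11, with 4 and 2 positive values. With a term for sex, which only rd10 P18 and P21 inform, the median at P15 was 0.45. Both rd10 P21 libraries were above both WT libraries for 7 of the 9 genes, against 24.9% of all genes, and below for 0 of 9, against 24.2%. The genes outside were Gnao1 and Pcp2. Prkca counted as above by a narrow margin, with 488.8 CPM in rd10 P21 replicate 2 against 487.7 CPM in WT replicate 1. Some lists of other cells of the inner retina had medians of similar size at P21, 0.46 for 8 genes of homeostatic Muller glia, 0.38 for 8 of OFF bipolar cells and 0.28 for 6 of horizontal cells, and both rd10 P21 libraries were above WT for 7, 6 and 5 of them. The lists of amacrine and ganglion cells had medians of 0.15 and -0.08, and that of rods was at -1.05 with 12 of 12 genes below WT. Their part in the cascade values was not tested. In rd10 P15 there were 2 of 9 all above (Grm6 and Gnao1) and 2 all below (Rgs7 and Rgs11), against 24.8% and 24.9% of all genes, and in rd10 P18 there were 2 above (Grm6 and Rgs11) and 2 below (Rgs7 and Prkca), against 24.1% and 22.9%. These comparisons share the WT libraries.

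Between the ages of rd10, the 9 genes were again not called in any comparison, against 0.591% of genes called between P18 and P15, 0.401% between P21 and P15 and 0.0196% between P21 and P18. DESeq2 called 0 of 9 in each. At an unadjusted p under 0.05 there were 1, 1 and 3 of 9, where the shares over all genes were 12.9%, 12.8% and 10.8%. Both P21 libraries were above both P15 libraries for 5 of the 9 genes (26% of all genes) and below for 0 (25.5%), and above both P18 libraries for 6 of 9 (21%) and below for 0 (22%). Of P18 against P15, 1 of 9 (Rgs11) was all above and 1 (Gnao1) all below, against 21.9% and 20.4% of all genes. Median log2 fold changes of the 9 were -0.07, 0.26 and 0.22 in these comparisons. All 9 values between P21 and P18 were positive, and the largest were 0.79 ± 0.32 for Nyx, 0.61 ± 0.25 for Trpm1, 0.57 ± 0.28 for Gpr179 and 0.56 ± 0.22 for Prkca, with adjusted p by edgeR between 0.440 and 0.498.

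The size of these 4 differences rested on the library that stood apart. Without rd10 P18 replicate 1, the median of the 9 was 0.26 with 8 positive values, while the log2 fold changes between P21 and P18 were 0.38 for Nyx, 0.29 for Trpm1, 0.20 for Gpr179 and 0.28 for Prkca. Without rd10 P18 replicate 2, which leaves the library with low long-gene values as the only one of its age, they were 1.35, 1.01, 1.06 and 0.91, and 3 of the 9 genes (Nyx, Trpm1 and Gpr179) were called. Replicate 1 minus replicate 2 of rd10 P18 was -0.97 for Nyx, -0.86 for Gpr179, -0.72 for Trpm1 and -0.63 for Prkca on the log2 scale. Rgs7, Rgs11 and Pcp2 had differences of -0.03, 0.11 and 0.64. Nyx, with 5183 exon bases, lay further from 0 than the median of -0.11 in its length class, and the part of gene length in the differences was not tested. In rd10 P15 all 9 genes were higher in replicate 1 than in replicate 2, by 0.13 to 0.62, and there the medians of the length classes were between -0.01 and 0.01.

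**Figure D4:**
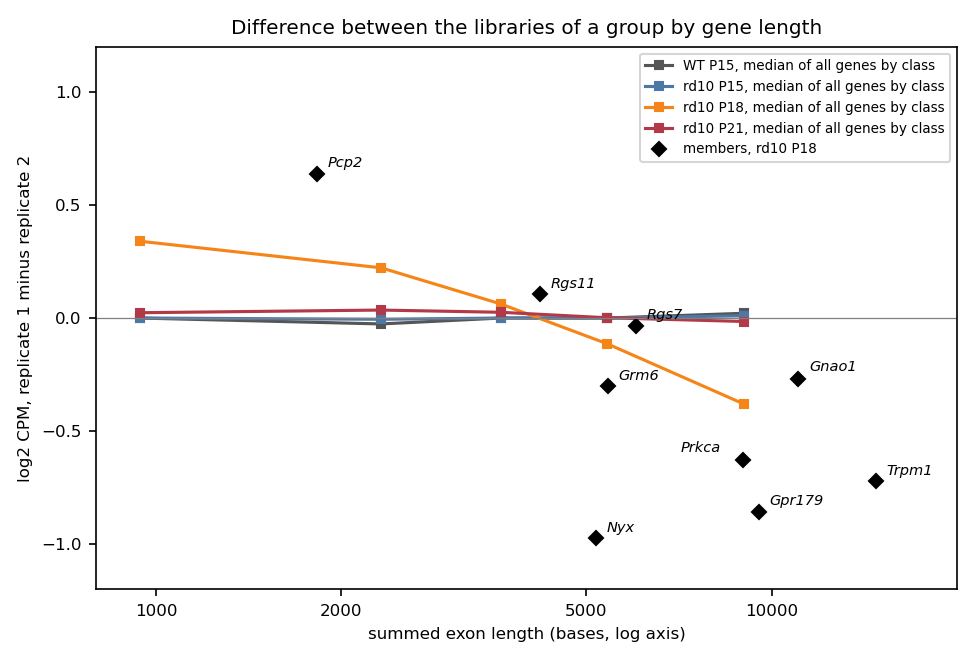
Log2 CPM of replicate 1 minus replicate 2 against summed exon length in bases (log axis). Squares joined by lines are medians of all genes in 5 classes of length in each group, and black diamonds are the 9 members in rd10 P18. The rd10 P18 line runs from 0.34 to -0.38 where the other groups stay near 0, and 7 of the 9 diamonds lie below 0.

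Per length of exon, as RPKM (CPM per kilobase of exon), Prkca had the highest median level of the 9 genes over the 8 libraries (53.3), followed by Grm6 (46.8), Gnao1 (45.1) and Pcp2 (39.1). Gpr179 (26.2), Trpm1 (20.8) and Rgs11 (16.4) came next, and Rgs7 (8.15) and Nyx (6.98) were lowest. Rgs11 and Rgs7 were the only neighbours in this order whose ranges did not overlap. On this scale Grm6, the receptor, was above Trpm1, the channel, in each group by the means (35.0 and 19.3 RPKM in WT P15, 54.9 and 25.7 RPKM in rd10 P21). The length used is the sum of all annotated exons, and which transcripts were expressed was not examined. By CPM, without the length, the ratio of Grm6 to Trpm1 was 1.23 in rd10 P18 replicate 1. In the other libraries it was between 0.625 and 0.916.

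Of 5 other genes of the cascade and its shut-off, 1 was called. Rgs9bp, the anchor of RGS proteins that rods and cones use as well, was at 1150 and 959 CPM in WT. In rd10 it was already lower at P15, at 540 and 568 CPM, with 355 and 483 CPM at P18 and 504 and 642 CPM at P21. Its log2 fold change at P18 against WT P15 was -1.33 ± 0.20 (adjusted p 0.0222 by edgeR), the comparison in which it was called. The call was lost in the fit of the 4 libraries compared (adjusted p by edgeR 0.0776) and without WT replicate 1 (0.161) or WT replicate 2 (0.0624). Gnb3, the beta subunit that partners Go here and transducin in cones, was at 322 and 321 CPM in WT, and in rd10 at 305 and 283 CPM at P15, 594 and 524 CPM at P18 and 516 and 485 CPM at P21. Its log2 fold change at P18 was 0.80 ± 0.13 against WT P15 and 0.93 ± 0.13 against rd10 P15, with adjusted p by edgeR of 0.0291 and 0.0312, under the fold threshold. Over all other settings than leaving out a library, the first was 0.57 to 0.92, with adjusted p (edgeR or DESeq2) from 3.10e-05 to 0.153. The second was 0.89 to 1.01, with adjusted p (edgeR or DESeq2) from 6.65e-07 to 0.129. Gnb3 had its 4 later libraries above all P15 libraries, as Rgs11 did, and the share of all genes with this order was not counted. Rgs20, an RGS protein of Go and Gz, was at 62.5 and 52.4 CPM in WT and between 28.1 and 35.4 CPM in the 6 rd10 libraries. Its log2 fold change at P18 was -0.91 ± 0.17 (adjusted p by edgeR 0.0435). Over the same other settings it was -1.14 to -0.79, with adjusted p (edgeR or DESeq2) from 0.00128 to 0.125. The others, Gng13 and Gnb5, had values at P18 of -0.46 to 0.26 with adjusted p by edgeR over 0.05.

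The photoreceptor side of the synapse was read through 7 genes whose proteins contact the ON bipolar dendrite or drive glutamate release, and 0 of 7 were called in each of the 6 comparisons. Egflam (pikachurin, a matrix ligand of dystroglycan) was at 383 and 347 CPM in WT and 179 and 199 CPM in rd10 P21, a log2 fold change of -0.95 ± 0.15 (adjusted p by edgeR 0.0487) under the fold threshold. Scaled to the bipolar identity list it was -1.24 and passed both thresholds, and with a replicate block or a term for sex its adjusted p by edgeR was 0.0735 and 0.0817. Cacna1f, the calcium channel of the photoreceptor terminal, was at 412 and 360 CPM in WT. In rd10 it was at 229 and 234 CPM at P15, 165 and 239 CPM at P18 and 264 and 314 CPM at P21. Its log2 fold change at P18 against WT P15 was -0.94 ± 0.19 (adjusted p by edgeR 0.0546). The median log2 fold changes of the 7 against WT P15 were -0.24, -0.59 and -0.19 at P15, P18 and P21, with 3, 1 and 1 positive values. Dag1, the gene of dystroglycan, went the other way, at 101 and 62.1 CPM in WT and 130 and 132 CPM in rd10 P21.

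**Figure D5:**
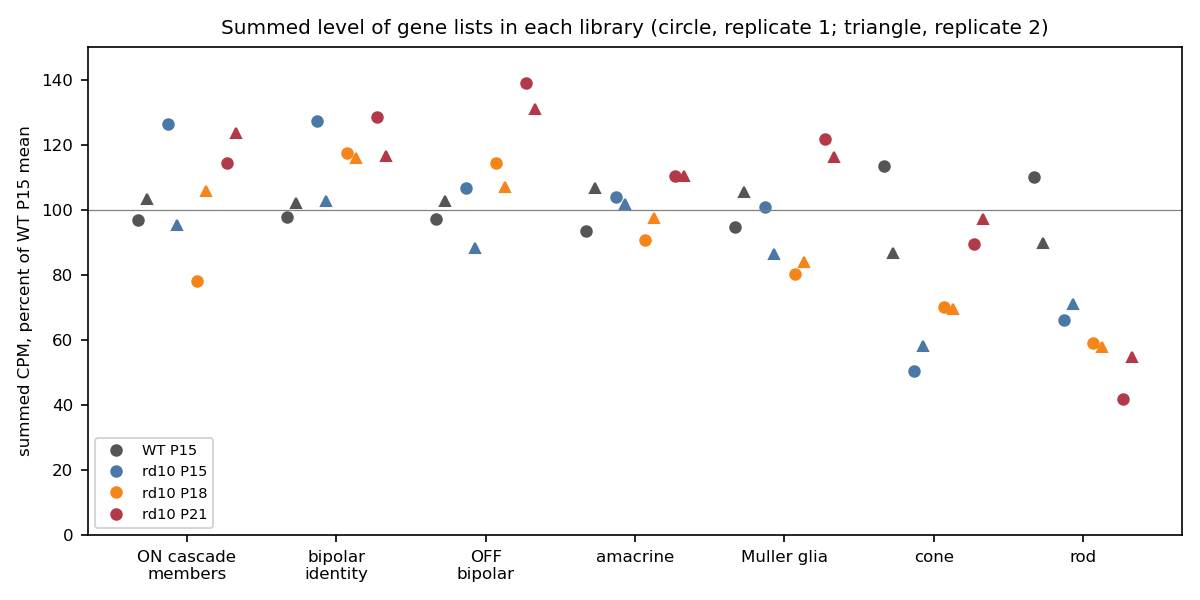
Summed CPM of gene lists in each library as percent of the mean of the WT P15 libraries, with 100 marked by a line. Circles are replicate 1 and triangles replicate 2. The 9 cascade genes sit between 78.1% and 126% and the bipolar identity list between 97.8% and 129%, while the rod list is at 41.8% and 54.7% in rd10 P21.

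Genes that mark bipolar cells of all types, as a list of 12, were used to check the tissue and to scale the cascade to its cells. All 12 were detected in each group, and 0 of 12 were called in each comparison with WT P15, with median log2 fold changes of 0.12, 0.23 and 0.29. Their summed level was 1288.97 and 1346.52 CPM in WT and 1694.45 and 1535.54 CPM in rd10 P21. The summed level of the 9 cascade genes was 1812.84 and 1931.95 CPM in WT and 2140.61 and 2313.72 CPM in rd10 P21. The ratio of cascade to identity genes was thus 1.41 and 1.43 in WT and 1.26 and 1.51 in rd10 P21. Gnao1 and Prkca, with the highest mean CPM of the 9 (500 and 441), weigh most in the cascade sum. In rd10 P18 replicate 1 the ratio was 0.945 and in replicate 2 it was 1.30. When the libraries were scaled by the identity list, the median log2 fold change of the 9 at P21 against WT P15 was 0.13 in place of 0.41, and 5 of 9 were positive, with the median over all genes at -0.29 in place of 0.00. Scaling by library size alone gave 0.52, with the median over all genes at 0.11. Red blood cell and pigment epithelium genes differed between the libraries, at 56.8 to 187.9 and 21.8 to 254.1 summed CPM, and their part in the values of the cascade was not tested.

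The genes whose profile over the 8 libraries was most like the mean of 6 members (Grm6, Trpm1, Gpr179, Nyx, Rgs11 and Pcp2) were sought among 16198 genes with a mean of at least 1 CPM. Kcnk3, a background potassium channel, came first with Pearson's r of 0.979, followed by A730046J19Rik (0.976), Dach1 (0.972), Fam196a (0.972), Mcc (0.968), Tacr1 (0.967), Slc45a1 (0.966) and Nfix (0.962). The values describe 8 points that share their scaling and were the highest among these candidates. Most like Grm6 alone were Sox6 (0.970), Phtf2 (0.963), Adgre5 (0.956), Nab1 (0.952) and Vat1l (0.945).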

How the data were processed

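Per the labels, poly-A RNA of whole retinas was sequenced. The authors deposited raw read counts, not normalized, for 8 libraries in 1 table. HISAT2 is named in the submitters' processing notes, without a version. The counter, its strand setting, the build and the annotation were not given in the sources used here. GENCODE M21 (GRCm38), which names 52081 of the 57010 identifiers, gave symbols, coordinates and exon lengths.

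Genes were kept by filterByExpr (minimum count 10, minimum total count 15) and tested with edgeR 4.0.16 (R 4.3.3): TMM scaling, a quasi-likelihood fit of all 8 libraries with robust estimation, no covariates, and Benjamini-Hochberg adjustment over 20457 genes. Calls needed an adjusted p below 0.05 and a log2 fold change beyond 1 in either direction. The SE of a fold change is its size over the square root of F, and a prior count of 2 was added for log2 CPM. DESeq2 1.42.0, which the study also used in another version, was an alternative, besides other scalings, no filter, fewer libraries, a block and a term for sex. The fits were tested on simulated data. The labels do not say whether retinas came from separate mice, so p-values measure the spread between these samples. The spread between 2 libraries limits precision more than depth does (at least 649 counts per member).

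The 9 members were all named. From other lists, genes called or highest in mean CPM were to be named, and Gnb3, Rgs20, Egflam, Cacna1f and Dag1 were chosen after their values were seen. Members, lists and motifs were chosen with earlier results of these data known. Promoter windows came from RefSeq's table for GRCm38.p6, which held 8 of the 9 members, the first window of each being counted. Figures were drawn with matplotlib 3.10.9.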

Additional observations from a re-analysis of the deposited data

How the results depend on the processing

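The count of cascade genes called was 0 in the 6 comparisons under every alternative run, except rd10 P21 against rd10 P18, where leaving out single libraries gave 0 to 3. Of 736 recomputed values of 46 named fold changes, 674 kept their direction and their side of the thresholds, 34 changed sign, 9 became calls and 19 lost a call. Deviations of libraries with the same replicate number had correlations between -0.02 and 0.06 across groups. With 2 libraries per group these values cannot show whether the replicate numbers pair the retinas. With the number as a block the counts stayed at 0, Rgs11 between rd10 P21 and rd10 P15 was at 0.79, and the Syt2 calls were lost.

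The cascade values that changed sign were small ones against WT P15. Scaled to the bipolar identity list, which moved the median of all genes to -0.19 at P15 and -0.29 at P21, Gpr179 at P15 was -0.15, and Rgs7, Pcp2 and Prkca at P21 were -0.19, -0.16 and -0.24. With library size only, which moved that median to 0.03, 0.13 and 0.11 at P15, P18 and P21, Nyx at P15 was 0.0017, Gpr179, Rgs7 and Pcp2 at P18 were 0.11, 0.0076 and 0.11, and Gnao1 at P21 was 0.044. With a term for sex, which only rd10 P18 and P21 inform, Nyx and Prkca at P15 were 0.50 and 0.19. Under that term Gpr179 and Gnao1 at P18 were 0.15 and 0.12, and Gnao1 and Pcp2 at P21 were 0.15 and -0.0295. The cause of these changes was not tested. Gpr179 at P18 was 0.0007 by DESeq2 and 0.0067 from the 4 libraries compared. When single libraries were left out, the ranges that crossed 0 were, at P15, -0.26 to 0.33 for Gpr179, -0.39 to 0.23 for Nyx, -0.44 to 0.15 for Pcp2 and -0.32 to 0.10 for Prkca. At P18 they were -0.60 to 0.12 for Trpm1, -0.49 to 0.37 for Gpr179, -0.79 to 0.19 for Nyx and -0.37 to 0.27 for Pcp2, and at P21 -0.48 to 0.26 for Gnao1 and -0.10 to 0.41 for Pcp2. Without crossing 0, values at P15 of Trpm1 (0.08 to 0.55), Gnao1 (0.18 to 0.41) and Rgs11 (-0.50 to -0.18), and of Rgs11 at P18 (0.14 to 0.37), moved by over 1.5 times. Groups of 2 libraries limit each value more than depth does, and a lone library was assumed to vary like the other groups.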

Other observations

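Among 8 markers of OFF bipolar cells, which hyperpolarize to light through ionotropic glutamate receptors, Syt2, a synaptic vesicle calcium sensor, was the 1 called gene at P21. It was at 23.5 and 22.2 CPM in WT, 22.4 and 22.3 CPM in rd10 P15, 47.6 and 29.1 CPM in rd10 P18 and 59.2 and 64.2 CPM in rd10 P21. Its log2 fold change in rd10 P21 was 1.43 ± 0.23 against WT P15 and 1.47 ± 0.23 against rd10 P15 (adjusted p by edgeR 0.0487 and 0.0431), and both calls were lost with a replicate block (adjusted p by edgeR 0.0696 and 0.0606) and without single libraries (adjusted p by edgeR up to 0.262 and 0.269). Grik1, the kainate receptor subunit of these cells and the list's highest gene, was at 122 and 132 CPM in WT and 164 and 161 CPM in rd10 P21. Syt2 is also expressed in other retinal neurons.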
